A study of Mus musculus with 12 samples.

Results

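Regions of low but not absent methylation were examined in lineage-negative bone marrow progenitors of BALB/c mice, the marrow cells left after those with markers of mature blood lineages are removed. A region belonged to the set when the mean of its 3 wild-type levels was at least 10% and under 30%, which held for 2907 of the 107115 candidate regions that the authors tabulated (2.71%). The level is the share of cytosines in CpG dinucleotides read as methylated, averaged over a region. The other candidate regions comprised 4511 with a wild-type mean under 10%, 11377 between 30 and 70% and 88320 at 70% or more. Wild-type mice were compared with mice labelled dnmt1-/-, whereas the series text describes a missense change modelled on hypomorphic fish alleles. Both groups were BALB/c, and the labels give no age, sex, treatment or further allele. Each genotype had 6 libraries, from 3 replicate numbers and 2 kits (a bisulfite kit and an enzymatic conversion kit), and the deposited table holds 1 column per genotype and number, so n = 3 against 3. The sources used here do not say how the reads of the kits entered a column. The labels do not state that the numbers were separate animals, so p-values measure only the spread between these columns. No read counts accompany the levels, so the depth behind each is unknown. No RNA was measured here, so the labelled cell type was not checked against marker genes.

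In mammals most CpG dinucleotides carry a methyl group on the cytosine, and CpG-dense islands at gene starts are usually free of it. Dnmt1 is the maintenance enzyme that restores the mark on the newly made strand after replication, so that its loss dilutes the mark as cells divide. Levels between these extremes are typical of island edges, of enhancers bound by transcription factors, and of mixtures in which some cells or some alleles carry the mark. An average over many DNA molecules does not tell these apart.

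The members were chosen by their wild-type values, so wild-type levels are a description. The authors had also picked all candidate regions for differing between these very columns, so no fall given here is an independent measure of its size. The following sequences show what such DNA looks like. They are parts of the 250 bases upstream of RefSeq gene starts (GRCm38.p6, the assembly that mm10 names) that lie inside a member, on the strand of the gene and 5′ to 3′, with each CpG in capitals. Hoxb4, a homeobox gene active in blood stem cells, Epor, the erythropoietin receptor gene, and Pgf, a vascular growth factor gene, stand for starts whose level fell, and 2310030G06Rik for a start whose level rose.
Hoxb4, chr11:96318017-96318262, plus strand: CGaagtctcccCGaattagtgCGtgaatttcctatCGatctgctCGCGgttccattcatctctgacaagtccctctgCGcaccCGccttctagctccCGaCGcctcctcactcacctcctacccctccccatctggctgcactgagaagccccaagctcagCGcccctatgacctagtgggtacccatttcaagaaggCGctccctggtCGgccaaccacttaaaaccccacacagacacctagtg
Epor, chr9:21963577-21963744, minus strand: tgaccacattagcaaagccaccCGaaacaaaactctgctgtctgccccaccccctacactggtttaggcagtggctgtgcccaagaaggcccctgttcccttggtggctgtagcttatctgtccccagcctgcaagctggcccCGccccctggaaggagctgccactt
Pgf, chr12:85177496-85177563, minus strand: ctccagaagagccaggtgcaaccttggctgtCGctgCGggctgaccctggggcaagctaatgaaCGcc
2310030G06Rik, chr9:50746528-50746596, minus strand: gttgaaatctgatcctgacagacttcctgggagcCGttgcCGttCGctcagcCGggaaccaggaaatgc
The Hoxb4 stretch holds 13 CpGs in 246 bases, the Epor stretch 2 in 168, the Pgf stretch 3 in 68 and the 2310030G06Rik stretch 4 in 69. The levels given further on are those of the whole members, which extend beyond these stretches. Some further stretches were chosen after their values were seen. Ercc6l2, a helicase gene linked to DNA repair, shows a dense start that lost nearly all methylation, Smarca5, a chromatin remodelling ATPase gene, a start that differed between replicate numbers, and Htatsf1 and Naa10 the starts on chromosome X described further on.
Ercc6l2, chr13:63814990-63815239, plus strand: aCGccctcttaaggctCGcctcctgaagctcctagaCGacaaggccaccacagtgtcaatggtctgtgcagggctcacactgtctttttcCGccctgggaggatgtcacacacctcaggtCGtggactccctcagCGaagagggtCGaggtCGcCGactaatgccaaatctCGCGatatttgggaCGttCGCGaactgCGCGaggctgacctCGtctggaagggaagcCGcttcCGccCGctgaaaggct
Smarca5, chr8:80739460-80739626, minus strand: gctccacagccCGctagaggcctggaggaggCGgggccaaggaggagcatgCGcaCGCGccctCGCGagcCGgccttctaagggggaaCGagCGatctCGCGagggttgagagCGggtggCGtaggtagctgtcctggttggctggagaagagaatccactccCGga
Htatsf1, chrX:57053642-57053739, plus strand: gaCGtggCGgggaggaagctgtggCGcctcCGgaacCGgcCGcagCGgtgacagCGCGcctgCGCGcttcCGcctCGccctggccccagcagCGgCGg
Naa10, chrX:73921945-73922059, minus strand: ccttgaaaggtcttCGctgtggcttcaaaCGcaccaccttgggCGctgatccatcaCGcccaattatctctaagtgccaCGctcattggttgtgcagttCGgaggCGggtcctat
The Ercc6l2 stretch holds 20 CpGs in 250 bases, that of Smarca5 15 in 167, that of Htatsf1 15 in 98 and that of Naa10 7 in 115. In all, 142 members at 140 genes contained at least 60 bases of such upstream sequence.

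Methylation of the low regions was lower in the Dnmt1 mutant, and 74.6% of them had a mutant mean under 10%. The mean level over members was 19.4%, 19.17% and 18.4% in the wild-type columns and 7.01%, 7.48% and 8.14% in the mutant columns. Every mutant column lay below every wild-type column. The mean was 19% ± 0.512 (SD, n = 3) in the wild type and 7.54% ± 0.563 (SD, n = 3) in the mutant, a mutant minus wild-type difference of -11.5 percentage points. The mutant thus kept 39.7% of the wild-type mean, beside 40.7% in regions under 10%, 54.7% in regions between 30 and 70% and 79.3% in regions at 70% or more. Member by member, the median difference was -10.97 points (quartiles -14.7 and -8.10, range -29.0 to 28.6).

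**Figure D1:**
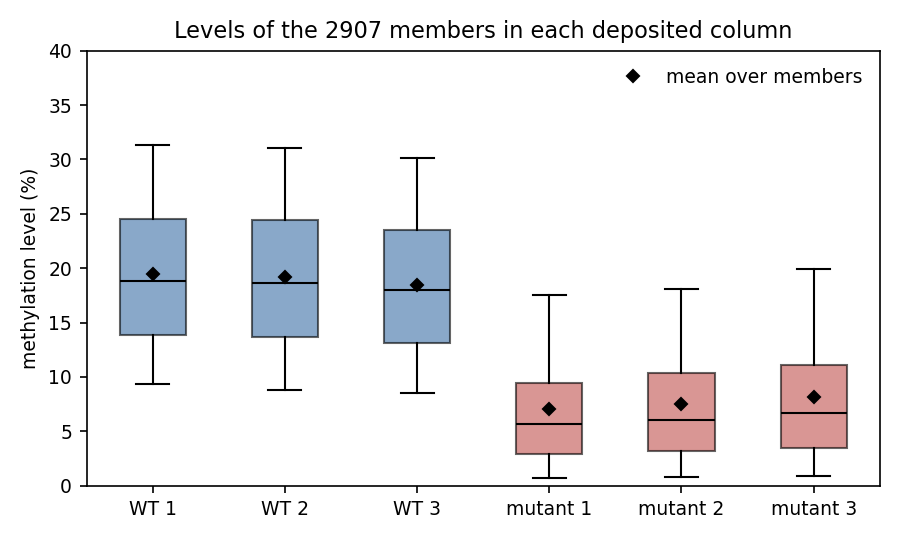
Methylation level in percent of the 2907 members in each of the 6 deposited columns, with boxes over the quartiles, a line at the median, whiskers from the 5th to the 95th percentile and a diamond at the mean. Means lie between 18.4% and 19.4% in the wild-type columns and between 7.01% and 8.14% in the mutant columns.

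Of the 2907 members, 1112 (38.3%) had a mutant mean under 5%, 2168 (74.6%) a mutant mean under 10% and 315 a mutant mean under 2%. In 4 members all 3 mutant columns stood at 0. At the other end, 739 members kept a mutant mean of 10% or more, and 51 (1.75%) had a mutant mean above their wild-type mean, 25 of them by 10 points or more. The fall was at least 10 points in 1678 members and at least 20 points in 215. By wild-type level, the median difference was -8.17 points in the 940 members from 10 to 15%, -11.2 points in the 715 from 15 to 20%, -13.4 points in the 636 from 20 to 25% and -16.3 points in the 616 from 25 to 30%.

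Limma tested percent levels of each candidate region. A call needed an adjusted p under 0.05, by the Benjamini-Hochberg method over all 107115 regions. Limma called 2556 members lower (87.9%), where 93.5% of all candidate regions were called lower, and 18 members higher (0.619%), where 0.0485% of all candidate regions were. All mutant columns lay below all wild-type columns in 2558 members (88.0%), beside 94.3% of all candidate regions, and above in 13 (0.447%), beside 0.0952%. The wild-type values enter both the rule and these calls, so nothing is read from the shares. Leaving out wild-type replicate 1 gave 11 members called higher, leaving out wild-type replicate 2 also gave 11, and so did a logit scale. When 1 wild-type column alone chose the regions and the difference was taken from the other two, the median difference was -10.55, -10.67 and -11.38 points for wild-type columns 1, 2 and 3.

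How the spread between replicate columns compared between the genotypes depended on the wild-type band. The median SD over the 3 mutant columns of a member was 1.79 points, and over the wild-type columns 3.26 points. In regions at 70% or more the order was the reverse, with 3.95 points in mutant columns and 2.13 in wild-type columns. The values were 3.65 and 3.50 points in regions between 30 and 70%, and 0.64 and 1.20 points in regions under 10%. Mean mutant levels were also lower in every band, so the parts of level and genotype in the spread cannot be told apart. All 3 wild-type columns lay between 10 and 30% in 1859 members. The wild-type columns spanned 20 points or more in 73 members and the mutant columns in 45.

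The members at the thresholds show what the rule admitted. Just inside the lower limit, a region in Erf, an ETS repressor gene, had wild-type levels of 13.3%, 10.9% and 5.78% and mutant levels of 3.89%, 3.11% and 11.0%. A region in Kdm1b, a histone demethylase gene, had 10.4%, 11.0% and 8.64% against 1.45%, 3.45% and 2.91%. Just outside lay regions at Gpr83 (wild-type mean 9.97%, mutant mean 3.13%) and Dlgap3 (9.98% and 3.13%). Just inside the upper limit, regions in Peli2 and Atp2b2 had wild-type means of 29.97% and 29.98% and mutant means of 16.6% and 7.55%. Just outside were regions near Ccdc97 (30% and 16.7%) and in Ldb3 (30.03% and 1.72%).

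**Figure D2:**
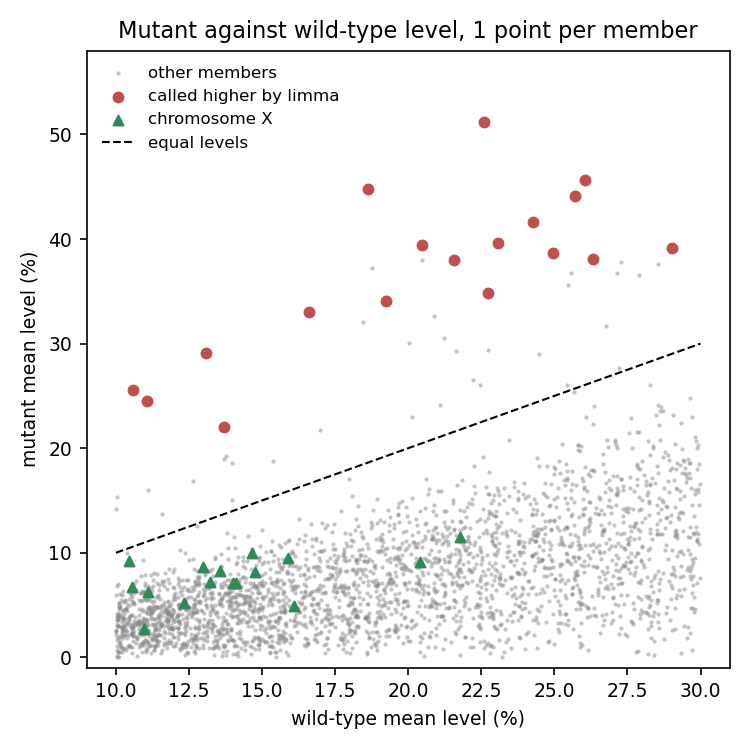
Mutant mean level against wild-type mean level, both in percent, with 1 point per member, a dashed line where they are equal, red circles for the 18 members that limma called higher and green triangles for the 16 on chromosome X. Nearly all points lie under the line, where 51 of 2907 members lie above it, and most lie under a mutant level of 10%.

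The largest falls among members called by limma with groups that did not overlap started from wild-type means between 27.8 and 29.7% and ended at mutant means of at most 2.33%. The region of Sult4a1, a brain sulfotransferase gene (chr15:84078832-84079254), had wild-type levels of 25.9%, 26.3% and 36.9% and mutant levels of 0%, 1.75% and 0.417%. The difference was -29.0 points (SE 3.15, limma adjusted p = 6.5e-05). A region in Cacna1b, the gene of a neuronal calcium channel, had 35.6%, 29.9% and 22.5% against 0.739%, 0.304% and 0.130%, a difference of -28.9 points. Regions overlapping Gm5103, Dact3, a regulator of Wnt signalling, Sephs2, which makes the selenium donor of selenoproteins, and 1700037F03Rik had differences of -27.9, -27.7, -27.3 and -27.3 points. The other 2 of the 8 lay between genes. The nearest start in the table was that of Mobp, a myelin protein gene of the brain, for a difference of -28.1 points and that of Slc35c1, the GDP-fucose transporter gene of the Golgi, for a difference of -27.2 points. In these 8 regions the highest mutant level in any column was 4.11%.

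The 8 members within 1 kb of a gene start with the largest falls, 1 per gene, came next, and 2 of them are also among the regions above. Over all 687 members near starts the mutant kept 37.4% of the wild-type mean. The region at 1700037F03Rik (chr13:75707106-75707278) is also within 1 kb of the start of Ell2, an RNA polymerase II elongation factor gene with a role in plasma cells, and went from 34.7%, 26.0% and 28.2% to 4.11%, 0.889% and 2.0%. The Sephs2 region (chr7:127273225-127273455) went from 31.1%, 28.0% and 24.2% to 0%, 0.778% and 0.667%. The Pgf region, part of which is printed above, had wild-type levels of 28.7%, 29.1% and 28.0% and mutant levels of 2.67%, 3.44% and 2.44%. Regions at the starts of Gtf2ird2, a transcription factor gene, Klhl40, a muscle gene, Htr7, a serotonin receptor gene, Bmp8b, a growth factor gene, and Scube1, which encodes a secreted and platelet surface protein, differed by -26.4, -25.2, -25.1, -24.8 and -24.0 points. Limma called all 8 lower, and in each all mutant columns lay below all wild-type columns. They were picked for their falls in these same columns, so this adds no support. Of the 8, Scube1 kept the highest mutant level, with 7.22%, 4.0% and 6.11%. In the authors' deposited table the metilene q of the 8 was under 0.05 only at Sephs2, Htr7 and Bmp8b.

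Near-complete loss also occurred from lower wild-type levels. The Ercc6l2 member, which holds the whole printed stretch, fell from a wild-type mean of 18.6% to 0.295%. A member at the start of Rbm46, a germ cell RNA-binding protein gene, fell from 15.8% to 0.513%. Both were chosen after their values were seen.

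Few members rose, and the 6 largest rises among called members with groups that did not overlap were more than 1 kb from any start in the table. The authors' deposited hypermethylated list has 4 regions, of which 2 are members. The list holds 0.00373% of all candidate regions. A region inside Pde4d, a cyclic AMP phosphodiesterase gene (chr13:109116425-109116578), had wild-type levels of 18.5%, 20.8% and 16.5% and mutant levels of 39.7%, 39.7% and 54.9%. Every mutant column lay above every wild-type column, by a mean difference of 26.1 points (SE 4.07, limma adjusted p = 0.000383). An adjacent Pde4d member (chr13:109116584-109116979) had 21.1%, 31.8% and 23.8% against 30.7%, 28.4% and 51.2%, so that the groups overlapped. It differed by 11.2 points and limma did not call it (adjusted p = 0.0901). A region inside Cracd, a regulator of actin capping (chr5:76857151-76857356), had 36.6%, 19.8% and 11.4% in the wild type and 67.7%, 43.8% and 42.2% in the mutant. Its difference was 28.6 points (SE 7.83, limma adjusted p = 0.00709), and the lowest mutant column stood over the highest wild-type column. In the authors' deposited table the Pde4d region has 13 CpGs and a metilene q of 0.00021, and the Cracd region, under the older symbol C530008M17Rik, has 10 CpGs and a q of 1.

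A neighbouring Cracd member had 31.3%, 27.3% and 18.4% against 63.1%, 32.8% and 36.3%, a difference of 18.4 points (limma adjusted p = 0.0374). Without wild-type replicate 1, 2 or 3 or mutant replicate 1 its adjusted p was 0.0516, 0.0756, 0.129 and 0.0575. A region of chromosome 5 with no named gene within 50 kb (chr5:119748356-119749142) rose by 19.6 points. Regions in Eva1a, a gene of autophagy, and Mdk, the gene of the growth factor midkine, rose by 18.9 and 16.5 points. In each of these 3 regions, all mutant columns lay above all wild-type columns, which the choice of regions required.

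At gene starts 8 of 687 members (1.16%) had a positive difference, beside 1.75% of all members. Limma called 3 of the 687 higher, beside 0.619% of all members and 0.0485% of all candidate regions called higher. The region that spans the start of 2310030G06Rik, and overlaps Cryab, a small heat-shock protein gene, had 10.3%, 11.6% and 11.3% in the wild type and 14.5%, 30.3% and 28.7% in the mutant. All mutant columns were above the wild type, and mutant column 1 was much nearer to the wild type than the others. The difference was 13.4 points (SE 3.96, limma adjusted p = 0.0103). At H2-M5, a nonclassical histocompatibility gene, the levels were 15.9%, 33.3% and 29.7% against 41.5%, 31.2% and 41.6%, so that the groups overlapped. The difference was 11.8 points with limma adjusted p = 0.0389, and p ranged from 0.0521 to 0.136 without wild-type replicate 1 or 3 or mutant replicate 1 or 3. At Cnih1, a gene of protein export named here after its values were seen, the difference was 8.30 points (limma adjusted p = 0.0428). Regions at Rtkn and Vcpkmt, a lysine methyltransferase gene, differed by 10.5 and 9.07 points and did not pass the test (limma adjusted p = 0.126 and 0.19).

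Low regions lay near gene starts more often than highly methylated regions and less often than unmethylated ones. Starts of protein-coding genes came from a RefSeq table of 21263 start windows that is not complete and has none on chromosome 18, so 69 members were not placed. Of the 2838 members placed, 687 (24.2%) were within 1 kb of a start, at 598 genes. The share was 47.6% in regions under 10%, 11.4% in regions between 30 and 70%, 3.11% in regions at 70% or more and 6.45% over all candidate regions. Within 500 bp it was 16.1% for members, beside 4.33% over all candidate regions. The start itself was overlapped by 4.40% of members, beside 9.60% of regions under 10% and 1.46% of all candidate regions. Of the 687, 480 (69.9%) had their midpoint downstream of the start, on the side of the transcribed gene, and 207 upstream. A further 1391 members (49.0%) lay in protein-coding gene bodies, 212 (7.47%) in other genes and 548 (19.3%) between genes. These shares are descriptions, since regions are not replicates. The fall was alike in each class, with median differences of -10.7 points near starts, -10.96 in gene bodies, -11.3 in other genes and -11.3 between genes.

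**Figure D3:**
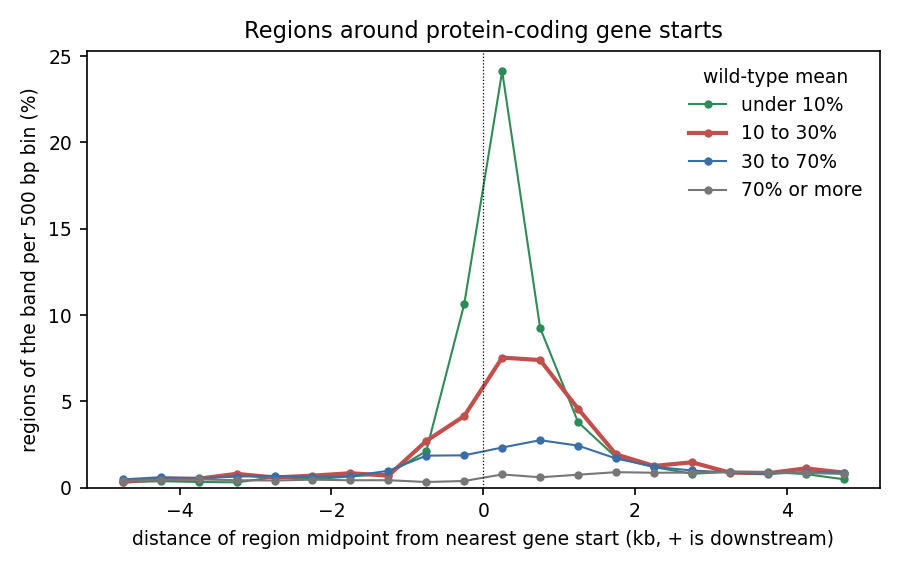
Share of the regions of each wild-type band, in percent, whose midpoint falls in each 500 bp bin around the nearest protein-coding gene start, with distance in kb and positive values downstream. The 10 to 30% band is highest in the bins from 0 to 1 kb downstream, at 7.54% and 7.40%, where the band under 10% peaks in the first of them.

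The start windows near members were rich in CpG. In the 300 bases around these starts (250 before and 50 after), the 611 windows near members held a median of 19 CpGs (quartiles 10 and 27). The median was 13 over all 21263 windows, 22 near regions under 10%, 15 near regions between 30 and 70% and 8 near regions at 70% or more. At least 15 CpGs were found in 62.2% of windows near members and in 46.8% of all windows. The words CACGTG and TGACGT, each with a CpG and searched on both strands, occurred in 7.53% and 8.02% of windows near members and in 7.84% and 8.49% of all windows. GCATGC, searched as a word without a CpG, occurred in 5.73% and 8.19%. CACGTG and TGACGT share the letters ACGT but cannot match at the same ACGT, and GCATGC shares no such core with them.

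Low regions lay between the other bands in how often they had a neighbour. Their median length was 378 bp (quartiles 216 and 571), beside 179 bp in regions under 10%, 674 bp between 30 and 70% and 691 bp at 70% or more. Another candidate region lay within 1 kb of 62.2% of members, beside 71.5% of regions under 10%, 44.9% between 30 and 70%, 42.7% at 70% or more and 44.7% of all. That neighbour belonged to the band under 10% for 24.8% of members, to the band from 30 to 70% for 17.1% and to the band of 70% or more for 20.4%, and a member can have several. The longest members were a 2066 bp region of Adgrb1, an adhesion receptor gene of the brain, a 1829 bp region of Adgrg1, an adhesion receptor gene expressed in blood stem cells, and a 1576 bp region of Gm11190. Their wild-type and mutant columns did not overlap, with differences of -14.0, -8.42 and -13.1 points. All mutant columns lay below all wild-type columns in 88.0% of all members and 94.3% of all candidate regions.

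Members also occurred in runs, where successive members were at most 5 kb apart. There were 326 such runs with 796 members, and 2111 members stood alone. A run of 7 at Pcdh8, a protocadherin gene, spanned 3.50 kb, and limma called all 7 lower with a median difference of -12.7 points. A run of 7 named for Cilp2, a cartilage matrix gene, and Yjefn3 spanned 8.62 kb, with all 7 called lower and a median of -20.1 points. Runs of 6 at Myorg and at Shank1, a scaffold gene of synapses, had medians of -11.0 and -8.59 points, again with every member called lower. Hic1, a tumour suppressor gene often methylated in cancer, had a run of 5 with a median of -10.4 points. Beside the counts of these runs and of the next, limma called 87.9% of all members and 93.5% of all candidate regions lower.

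A run of 12 members on chromosome 17, the longest, did not follow the genotype in every column. It spans 5.74 kb (chr17:39843077-39848821) and covers Rn18s-rs5, a sequence related to 18S ribosomal RNA, and the edge of AY036118. Ribosomal RNA genes exist in many near-identical copies, and the sources used here do not say how reads of such copies were placed. The mean over the 12 members was 19%, 19.3% and 21.4% in the wild-type columns and 4.39%, 4.48% and 18.8% in the mutant columns. Mutant columns 1 and 2 were low at all 12 members, at most 5.81%, whereas mutant column 3 lay between 14.6% and 23.5%. Wild-type levels pooled over the 12 members ranged from 10.5% to 27.0%. Mutant column 3 was not within the wild-type levels at each member. At chr17:39844387-39844465 it stood at 14.6%, above wild-type levels of 10.5%, 11.9% and 14.2%. The mean difference was -10.7 points over all columns and -15.5 points without mutant replicate 3, which itself differed from the wild-type mean by -1.19 points. Limma called 11 of the 12 lower, although all mutant columns lay below all wild-type columns in only 4.

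Replicates of the mutant also parted in the Hoxc cluster. Hox genes encode the transcription factors that pattern the body axis, and their unmethylated domains are kept by Polycomb complexes. The Hoxa, Hoxb and Hoxd clusters held 4, 6 and 7 members, all with negative differences (medians -10.2, -5.52 and -7.78 points), of which limma called 3, 2 and 5 lower. Over all members limma called 87.9% lower, and over all candidate regions 93.5%, which also stands beside the Hoxc count. The Hoxc cluster held 14 members, of which limma called 4 lower and 7 had a positive difference. These 7 lie from Hoxc6 through Hoxc5 to Hoxc4, 6 of them in a run of 15.3 kb (chr15:103000375-103015667). Their mean was 21.7%, 22.02% and 19.22% in the wild-type columns and 38.6%, 15.6% and 34.8% in the mutant columns. By these means mutant columns 1 and 3 were above the wild type and mutant column 2 below it. The order did not hold at each member. In the member at chr15:103000375-103000691, with 22.5%, 34.5% and 16.5% against 26.4%, 32.1% and 28.5%, mutant column 2 was the highest of the mutant columns.

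At the Hoxc6 member with the largest difference (chr15:103010616-103010854) the wild-type levels were 27.7%, 16.8% and 16.9% and the mutant levels 54.9%, 5.09% and 53.9%. A second Hoxc6 member (chr15:103009770-103010316) had 19.8%, 19.9% and 28.5% against 45.4%, 3.43% and 39.3%. These rank among the 3 members with the largest SD over mutant columns. Differences of the 7 members ranged from 4.26 to 17.5 points, and limma called 0 of the 7 in either direction, with 0 at an unadjusted p under 0.05 and 0 on a logit scale or with a variance trend. The groups overlapped at each. For the run of 6 the mean difference was 9.42 points, 17.3 without mutant replicate 2 and 4.77 without mutant replicate 1.

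On chromosome X the levels followed the replicate number more than the genotype. Of 92 candidate regions on X, 16 (17.4%) were members, where each autosome had between 2.14% and 3.32%. In 15 of the 16, replicate 1 was the highest column in both genotypes, which held for 260 of the 2891 other members (8.99%). In these 15 regions wild-type column 1 ranged from 29.4% to 60.4% (median 39.1%), and mutant column 1 from 8.22% to 30% (median 21.2%). Columns 2 and 3 of both genotypes were at most 3.36%. The wild-type mean between 10 and 30% was here an average of 1 column at 29.4% or more and 2 columns at 3.36% or less. The mean of mutant column 1 over the 15 was 21.6%, which is 54.2% of the 39.8% in wild-type column 1, a ratio of 1 column to 1 column with no replicate. Limma called 0 of the 16 X members in either direction, with 0 at an unadjusted p under 0.05 and 0 under the logit and trend fits.

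Among the 15, 11 lay within 1 kb of a gene start. At the start of Huwe1, a ubiquitin ligase gene, the wild-type levels were 60.4%, 0.778% and 0% and the mutant levels 27.3%, 0% and 0%. At Htatsf1, an RNA elongation and splicing factor gene, they were 45.7%, 1.60% and 1.0% against 13.3%, 0% and 1.5%. At Naa10, the gene of a protein acetyltransferase, they were 38.6%, 0% and 0.316% against 25.2%, 0% and 0.789%. The printed Htatsf1 and Naa10 stretches lie in these members. Clcn5, Gpkow, Lancl3, Chst7, Apln, Smim10l2a, Stard8 and Usp51 had the same order of columns at their starts. The exception on X was a region in the body of Mid1, with 13.7%, 16.4% and 35.2% against 0%, 29.8% and 4.6%. In the 64 X regions at 70% or more, column 1 instead had the lowest median in each genotype. Column medians were 85.2%, 89.1% and 88.5% in the wild type and 65.1%, 72.3% and 71.98% in the mutant. Means over all regions of that band were 86.7%, 87.3% and 87.5% against 66.6%, 69.2% and 71.6%, with column 1 also lowest. As background, gene starts on the inactive X chromosome of female mammals are methylated and those on the active X are not. The labels give no sex, and the part of sex in these values was not tested.

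**Figure D4:**
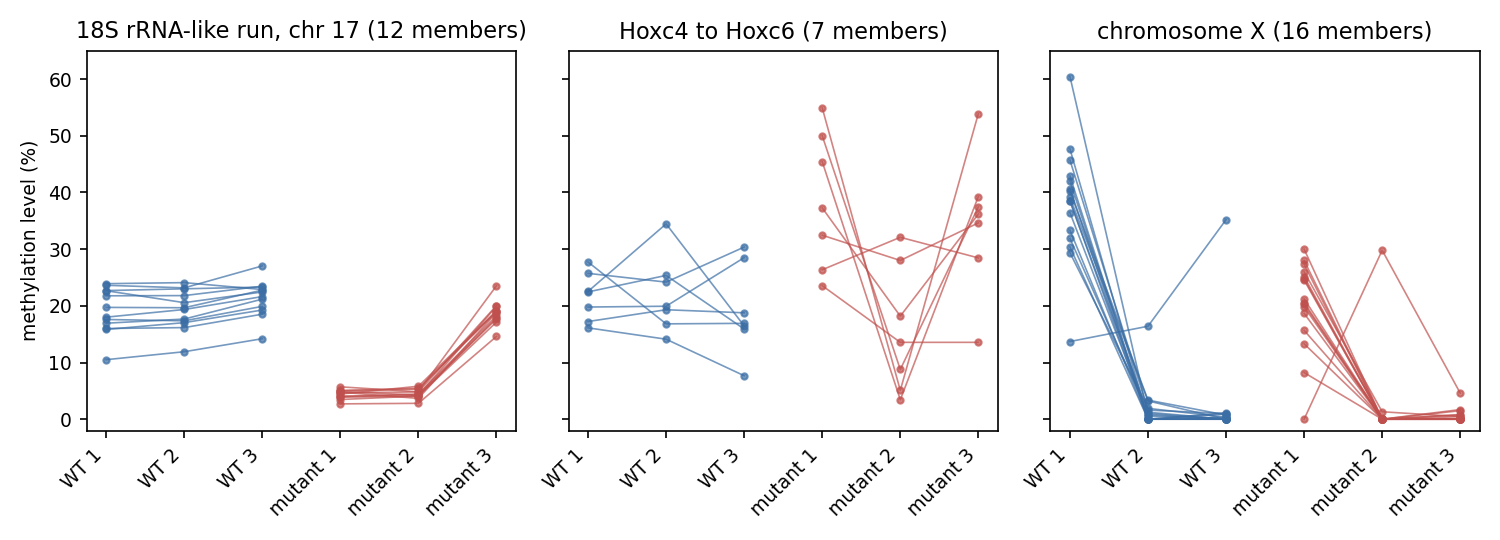
Methylation level in percent of each member in the 6 columns, with a line joining the columns of 1 genotype for 1 member, at the chromosome 17 run (12 members), from Hoxc4 to Hoxc6 (7) and on chromosome X (16). Mutant column 3 stands apart on chromosome 17, mutant column 2 at most Hoxc members, and column 1 of both genotypes at all X members but 1.

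Outside X, 17 members had a wild-type column under 5% beside another at 20% or more. The member at the start of Smarca5, in the stretch printed above, had 40.4%, 30.1% and 0% in the wild type and 21.1%, 15.3% and 0% in the mutant. Column 3 was at 0 in both genotypes, and the mutant mean of 12.1% was below the wild-type mean of 23.5% (limma adjusted p = 0.275). A member across the start of Miip that also overlaps Fv1, a retrovirus restriction gene, had 24.0%, 20.1% and 0.444% against 5.33%, 0.444% and 0%. A member in the body of Coro2b, a coronin gene of the actin cytoskeleton, had 50.2%, 4.36% and 1.73% in the wild type and 1.0%, 73.1% and 37.7% in the mutant. Its SD over mutant columns was the largest of all members, its difference was 18.5 points, and limma did not call it (adjusted p = 0.341). These are single regions, of which Smarca5 and Miip were chosen after their values were seen.

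Developmental transcription factor genes were the gene group in which low regions were most frequent among the 11 lists examined, and 7 of their members had a positive difference. Of 103 such genes, 56 had a member overlapping the gene or within 5 kb, with 86 members among 383 candidate regions (22.5%, beside 2.71% over all candidate regions). Limma called 59 of the 86 lower and 0 higher, where it called 93.5% of all candidate regions lower and 0.0485% higher. These background shares apply to the count of each list that follows. Their median difference was -7.56 points, beside -10.97 over all members and -16.6 over all candidate regions, and their median wild-type level of 15.3% was also below the 18.6% of all members. The 7 positive differences are the Hoxc members described above. The member with the largest difference lay in Tbx5, a gene of heart and forelimb formation, with 33.8%, 31.5% and 16.5% in the wild type and 1.24%, 1.59% and 5.71% in the mutant. The Hoxb4 member that holds the printed stretch had 24.2%, 32.4% and 30.7% against 5.31%, 8.23% and 11.4%. In both, which were picked for large differences, all mutant columns lay below all wild-type columns, and limma called both lower. Such separation held for 88.0% of all members and 94.3% of all candidate regions.

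Myeloid genes held 10 members at 6 of 24 genes (Mpo, Elane, Prtn3, Fcgr3, Spi1 and Mmp9), of which limma called 9 lower and 0 higher, with a median difference of -10.8 points, beside 93.5% called lower over all candidate regions. These genes encode granule proteins of neutrophils, an Fc receptor and the master regulator PU.1. In Mmp9, a neutrophil protease gene, the levels were 32.7%, 21.0% and 33.3% in the wild type and 3.22%, 2.48% and 2.07% in the mutant. Within 5 kb of Fcgr3, between genes, they were 16.1%, 19.9% and 18% against 2.45%, 3.40% and 2.40%. Between genes near Elane and Prtn3 they were 19%, 22.1% and 20.7% against 5.89%, 9.78% and 12.6%. Mutant columns lay below wild-type columns in all 3 regions, which were picked for large differences. The same held for 88.0% of all members and 94.3% of all candidate regions.

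Lymphoid and B cell genes had 6 members at 4 of 32 genes (Pax5, Irf4, Cd79b and Notch1), with 5 called lower, 0 higher and a median of -10.9 points. The member within 5 kb of Cd79b, a signalling chain of the B cell receptor, overlaps Scn4a and had 25.2%, 34.1% and 30.1% against 9.89%, 8.22% and 10.4%. That in Irf4, a transcription factor gene of B and plasma cells, had 23.3%, 26.3% and 26.3% against 12.8%, 12.9% and 11.1%. The region near Notch1, the receptor that directs T cell fate, differed by -15.9 points. T and NK cell genes had 8 members at 6 of 28 genes, with 7 called lower, 0 higher and a median of -9.33 points. Upstream of Bcl11b, a T cell commitment factor gene, in a member within 5 kb of the gene, the levels were 15.6%, 17% and 14.1% against 1.0%, 4.22% and 2.56%. Members at Tbx21 and Runx3, which encode T cell and NK cell regulators, both differed by -10.2 points, and Runx3 had an adjusted p of 0.0177 with limma that became 0.0516 without mutant replicate 1.

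Erythroid and megakaryocyte genes had 4 members at 4 of 24 genes, with 3 called lower, 0 higher and a median of -9.88 points. The Epor member, with 23.9%, 31.3% and 26.3% against 14.9%, 15.9% and 16.5%, kept more methylation than most members. The member within 5 kb of Itga2b, a platelet integrin gene, lies between genes and differed by -15.4 points, and that near Ank1, a red cell membrane skeleton gene, by -8.37 points. Stem and multipotent progenitor genes had 4 members at 4 of 24 genes (Hoxa9, Hlf, Prdm16 and Esam), all called lower, with a median of -8.41 points. In Hlf, a stem cell transcription factor gene, the levels were 24.7%, 22% and 31.3% against 9.78%, 18.1% and 20.4%. Its limma adjusted p of 0.0233 became 0.0952 without wild-type replicate 3 and 0.0696 without mutant replicate 1. The regions within 5 kb of Hoxa9, which lies between genes, and in Esam, an adhesion gene of stem cells and endothelium, differed by -12.2 and -6.93 points.

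Genes of the methylation and silencing machinery had 4 members at 3 of 34 genes, all called lower, with a median of -12.4 points. In Tet1, which encodes an enzyme that oxidises methylcytosine, the levels were 17.6%, 19.7% and 23.3% against 1.89%, 0.778% and 6.33%. In Dnmt3a, the gene of a de novo methyltransferase, they were 16.4%, 29.2% and 19.6% against 5.78%, 9.44% and 5.67%. In Kdm2b, which encodes a CpG island binding protein, they were 26.3%, 10.4% and 9.11% against 5.22%, 3.56% and 6.78%, and its limma adjusted p of 0.0482 became 0.109 without wild-type replicate 1 and between 0.0727 and 0.119 without any 1 of the mutant replicates.

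Interferon and viral sensing genes had 4 members at 4 of 30 genes, all called lower, with a median of -13.4 points. In Mavs, the adaptor gene of cytoplasmic RNA sensors, the levels were 18.3%, 20% and 19.4% against 2.11%, 0.667% and 3.33%. In Tlr9, whose product senses unmethylated CpG DNA, they were 13.8%, 19.7% and 26.5% against 0.818%, 6.61% and 1.55%. The region near Zbp1, a sensor of Z-form nucleic acids, differed by -9.89 points. Germline genes, many of them known methylation targets, had 2 members at 2 of 33 genes, Mei1 and Zcwpw1, both called lower, at -21.1 and -16.7 points. Stromal and endothelial genes, which stand for other cells of the marrow, had 3 members at 2 of 19 genes, all called lower, with a median of -11.5 points, among them regions at Kdr (-7.39 points), a vascular receptor gene, and near Sp7 (-17.5 points), a bone-forming factor gene. Imprinted genes, whose control regions are methylated on 1 parental allele, had members at 1 of 44 genes. It was Kcnk9, a potassium channel gene, with 4 members, 2 called lower and a median of -10.8 points, and the region with the largest difference there had 25.9%, 31.4% and 29.1% against 7.70%, 12.9% and 10.3%. Over all 11 lists, limma called 0 of 134 members higher, beside 0.619% of all members and 0.0485% of all candidate regions, with 0 at an unadjusted p under 0.05 and 0 on a logit scale or with a variance trend.

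The genes Mir152, Mir210, Mir671 and Mir8096 had their hairpin in or across the edge of a member. MicroRNAs pair with target RNAs through the seed, bases 2 to 8 of the mature strand, which is in capitals in the RefSeq sequences that follow. The 4 printed seeds all differ.
mmu-miR-152-3p: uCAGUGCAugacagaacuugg
mmu-miR-210-3p: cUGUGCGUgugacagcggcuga
mmu-miR-671-5p: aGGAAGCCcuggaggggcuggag
mmu-miR-8096: gGGCACGGuagcugaagagu
The member with Mir152, whose product targets Dnmt1 messenger RNA among others, fell from a wild-type mean of 13% to 1.67%. The member with Mir210, a microRNA induced by low oxygen, had means of 16.0% and 9.96%, that with Mir671 18.5% and 9.26%, and that with Mir8096 22.9% and 4.22%. These values concern DNA methylation at the genes, since no RNA was measured here.

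Of the 2907 members, 191 (6.57%) are in the authors' deposited hypomethylated list, which holds 33.1% of all candidate regions and whose smallest deposited difference is 20 points. A member whose wild-type level is near 10% cannot fall that far. In the authors' deposited table these 191 have between 10 and 58 CpGs, with a median of 10, and a metilene q under 0.05 in 76. The wild-type means in that table differ from those used here, and 34 of the 191 stand at 30% or more there. Scube1, for example, has 34.5% there and 29.8% here. A region in Cacna1b has 24 CpGs and a q of 2.2e-15 there, and the Pgf region 10 CpGs and a q of 1. In all, 24 members that were lower by 20 points or more were in neither list.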

How the data were processed

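Levels were deposited by the authors as a fraction of methylated cytosines per candidate region in 6 columns, and were multiplied to percent. The deposited lists of hypomethylated and hypermethylated regions give means per genotype as fractions, a difference of means (a score), CpG numbers, and a metilene q-value and a further p-value (not used). The 12 libraries were sequenced in paired-end mode at 100 bp, per the labels. Build mm10 is named in the submitters' processing notes. The aligner, the methylation caller and the coverage were not given in the sources used here.

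Columns were assigned to genotypes by name. The wild-type mean was rounded to 7 decimals of a percent before the limits of 10 and 30% were applied. Limma 3.58.1 in R 4.3.3 tested all 107115 regions on percent levels (two-sided, Benjamini-Hochberg, threshold 0.05), and was tested on simulated data. The changed regions of those data started from means of 30% or more, so falls from the levels of the members were not simulated. Exact permutation of 3 against 3 cannot go below p = 0.1. Genes were those overlapping a region or, failing that, the nearest start within 50 kb, from RefSeq GRCm38.p6. Starts came from 21263 windows of 17492 protein-coding genes. Of 395 entries in 11 gene lists, 391 matched, and a list gene reached 5 kb beyond its ends.

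Regions named were members of the hypermethylated list, the 8 largest falls and 6 largest rises among called members without overlap, 8 falls and 4 rises at starts, up to 3 per gene list, the 3 longest, the 3 with the largest mutant SD and those at the limits, 58 beside the last. Some genes of the lists are not reported here by name. The members, lists, tests and alternatives were chosen with earlier results of these data known. Python 3.11.15, numpy 2.4.6, pandas 2.3.3 and matplotlib 3.10.9 were used.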

Additional observations from a re-analysis of the deposited data

How the results depend on the processing

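The depth of each level is unknown, so low levels may rest on few reads, and short regions on few CpGs. The share of members called lower by limma (87.9%) was 89.3% on a logit scale and 93.6% with a variance trend, and between 73.8 and 85.1% when columns were left out. It was 74.8%, 74.6% and 78.0% for regions chosen by wild-type replicate 1, 2 or 3 alone. The share called higher (0.619%) was 0.378% on a logit scale, 0.377% where all 3 wild-type columns lay in the band, 0.277% and 0.381% for regions chosen by wild-type replicate 1 or 2 alone, 0.353% for members of 200 bp or more, and between 0.378 and 0.757% when columns were left out. The median difference was -12.19 points for wild-type means from 15 to 25%, and between -11.33 and -10.45 points when columns were left out. It was not restated on the logit scale, whose unit differs. With a gap of at least 5 points required, 1642 of the 2907 members lay below and 5 above. Over all candidate regions 78.3% lay below and 0.00934% above. The cause of these changes was not tested. Leaving out replicate 1 of both genotypes, and the run on chromosome 17, were alternatives chosen after seeing the data.

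The Hoxc6 region at 103009770 (6.64 points) was 19.62 points without mutant replicate 2 and reversed to -1.38 points without mutant replicate 1, to -2.86 points without replicate 1 of both genotypes and to -0.119 on the logit scale. Of the 58 named regions, 48 kept direction and call under all 10 alternatives.

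Columns of the same replicate number were alike for number 1 on chromosome X and little alike over the other members. Deviations of same-numbered columns from their group means correlated at 0.190, 0.0149 and 0.120 over members, and at 0.0158, -0.0337 and 0.0758 without chromosome X. Over members, columns 1 and 3 correlated best with their own number and column 2 did not. Without chromosome X only column 3 did. Wild-type column 1 then correlated at 0.039 with mutant column 2, above its 0.0158 with mutant column 1. With the replicate number as a block, limma called 87.9% of members lower (2554) and 0.722% higher (21), with a median difference of -10.97 points.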
